A study of Homo sapiens with 2 samples.

Results

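The TRPM (melastatin) subfamily of transient receptor potential channels comprises 8 genes, TRPM1 to TRPM8, and was examined in HEK-293, a cell line derived from human embryonic kidney, after transfection with miR-204. All probes other than controls whose gene name in the array files was one of these 8 symbols were taken, which gave 17 probes of the 41000 on the array, for 8 of 30484 gene names. Each of the 17 was printed as 1 spot, and none was saturated or carried an outlier flag. TRPM4 and TRPM7 were the only members with a probe well above background in every channel. Their 3 probes were the only TRPM probes counted for a ratio, by a rule given below. None of the 3 was past 2-fold between miR-204 and control cells, against 0.518% lower and 0.123% higher of all counted probes. With shares this low, that is no result about TRPM genes, and no fold was counted for the other members. TRPM3 and TRPM1, the genes that hold miR-204 and miR-211, gave no signal well above background in any channel.

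Cells received either a miR-204 mimic or a scramble oligo as control, at a labelled dose of 75 nM for 48 h, and their RNAs (called mimic and control below) competed on the same arrays. The 2-colour array reads each spot in Cy3 and in Cy5. The first array had control in Cy3 and mimic in Cy5. The dye-swap array had the reverse, so that each probe has 4 channel readings. No second transfection is named in the labels or methods, so both arrays make up 1 replicate. The spread between cultures is unknown, and a test over these arrays does not compare the conditions, so no call here rests on one. RNA was taken from whole cultures, in which fewer cells with a transcript and less of it per cell cannot be told apart.

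TRPM proteins are cation channels of the cell membrane that open in response to calcium, lipids, heat, cold or oxidative stress, depending on the member. TRPM6 and TRPM7 also carry a kinase domain of the alpha-kinase type and are known for their part in magnesium balance, TRPM6 mainly in the epithelium of kidney and gut. miR-204 and miR-211 are microRNAs encoded in introns of TRPM genes and transcribed with their hosts. A microRNA pairs with target transcripts mainly through its seed, bases 2 to 8 from its 5′ end.

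The mature sequences, from RefSeq on GRCh38.p14, are shown because the shared seed is what joins the hosts TRPM3 and TRPM1. They are written 5′ to 3′, with the seed in capitals.
hsa-miR-204-5p: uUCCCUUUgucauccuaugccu
hsa-miR-211-5p: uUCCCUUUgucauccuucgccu
hsa-miR-204-3p: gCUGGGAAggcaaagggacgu
hsa-miR-211-3p: gCAGGGACagcaaaggggugc
The 5p arms were identical at 20 of 22 bases. Their differences, counted from 1 at the 5′ end with the miR-204 base first, were A17U and U18C, both outside the seed. Of the 2370 mature human microRNAs in the RefSeq table, these 2 were the ones with the seed UCCCUUU. The seeds of the 3p arms differed from each other. The labels do not name the arm that the mimic carried.

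The hairpins show where each mature arm, here in capitals, lies in its precursor.
MIR204: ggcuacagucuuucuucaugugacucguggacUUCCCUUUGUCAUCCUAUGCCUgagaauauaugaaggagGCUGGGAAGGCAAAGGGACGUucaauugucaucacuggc
MIR211: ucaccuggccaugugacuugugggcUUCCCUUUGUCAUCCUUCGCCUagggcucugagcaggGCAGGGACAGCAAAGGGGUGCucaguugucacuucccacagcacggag
On GRCh38.p14, MIR204 (chr9:70809975-70810084, minus strand) lies inside TRPM3, a gene of 917912 bases on the same strand, 637 kb from the start of the gene, which is 69.4% of its length. MIR211 (chr15:31065032-31065141, minus strand) lies inside TRPM1, a gene of 160096 bases on the same strand, 96.0 kb from its start, which is 60.0% of its length. The mimic was added to the cells as an oligonucleotide, and the TRPM3 probes measure the transcript of the cell's own gene.

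A reading was well above background when the extraction software called the spot positive and significant and its signal exceeded 13 background standard deviations. By this rule 14 of the 68 TRPM readings were well above background, 9 in Cy5 and 5 in Cy3, or 8 for control and 6 for mimic. Over all probes without an outlier flag the share was 62.3% (control, Cy3) and 64.2% (mimic, Cy5) on the first array. On the dye swap it was 66.1% (control, Cy5) and 57.2% (mimic, Cy3). Of the 17, 2 were well above background in each of the 4 channels, against 56.7% of the 40872 probes of the array without an outlier flag. A further 12 were well above background in no channel, against 32.6% of the array. Many signals were near background. Where a signal could not be told from background the software deposited a small stand-in value, and 37 of the 68 TRPM values were stand-ins. A stand-in sets a ceiling on the signal and does not show that a transcript was absent.

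**Figure D1:**
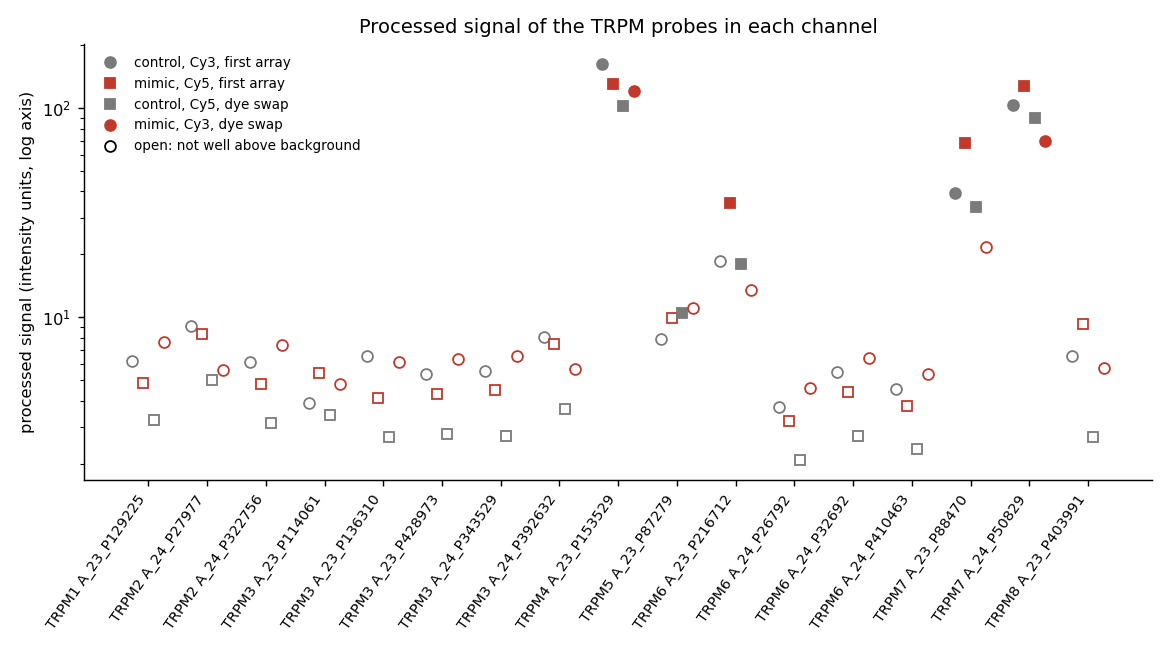
Processed signal (intensity units, log axis) of the 17 TRPM probes in the 4 channels. Grey is control and red is mimic, circles are Cy3 and squares Cy5, and open symbols were not well above background. Filled symbols occur for TRPM4, TRPM5, 1 TRPM6 probe and both TRPM7 probes, and the other probes lie between 2.08 and 9.27.

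TRPM3, a channel gated by heat and by the steroid pregnenolone sulfate, is the host of miR-204 and had the most probes, 5, which lie over 327592 bases of chromosome 9 in hg18, the build of the array files. None of its 20 readings was well above background, though 6 were called positive and significant, 3 of them from A_24_P392632. Processed signals were between 3.92 and 8.02 for control and between 4.13 and 7.49 for mimic on the first array. With the dyes swapped they were between 2.69 and 3.64 for control and between 4.78 and 6.50 for mimic. Of these 20 values 14 were stand-ins, whose level follows the channel, and no order of the RNAs was read from them. The mean spot signal minus its local background had a median of 2.61 over the 20 readings, between -7.03 and 12.6.

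The files match the TRPM3 probes to 3 different accessions. A_23_P114061 (chr9:72340092-72340151) and A_23_P136310 (chr9:72341161-72341220), both matched to the same one, lie 289 kb from the next probe. A_23_P428973 (chr9:72629941-72630000), A_24_P343529 (chr9:72632716-72647759) and A_24_P392632 (chr9:72667684-72667743) form the other cluster, and A_24_P343529 spans 15044 bases of the genome and so crosses an intron. These positions are on hg18 and the position of MIR204 above is on GRCh38.p14, so the probes cannot be placed on either side of it here. In neither cluster was a probe above the 95th percentile of the negative control spots in any channel.

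TRPM1, which carries the response of retinal ON bipolar cells and is also made in melanocytes, is the host of miR-211. Its probe, A_23_P129225 (chr15:29081234-29081293, minus strand), had processed signals of 6.19 and 3.22 for control and 4.84 and 7.66 for mimic, in the order first array and dye swap. All 4 were stand-ins. Minus its local background the spot measured -1.69 (control) and 6.47 (mimic) on the first array and 0.048 (control) and -14.2 (mimic) on the other. None of these exceeded the 95th percentile of the negative controls.

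The array holds 153 negative control spots, designed to match no transcript. Their mean signal minus local background had a 95th percentile of 6.22 and a maximum of 22.7 for control and 8.97 and 38.9 for mimic on the first array. On the dye swap these were 12.7 and 42.8 for control and 6.49 and 11.8 for mimic. The TRPM4 probe and the TRPM7 probe A_24_P50829 exceeded the maximum in all 4 channels. The other TRPM7 probe exceeded it in 3 channels and lay at 11.2 for mimic on the dye swap. In that channel the TRPM6 probe A_23_P216712 and the TRPM2 probe A_24_P27977 were also above the maximum, without being called well above background.

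**Figure D2:**
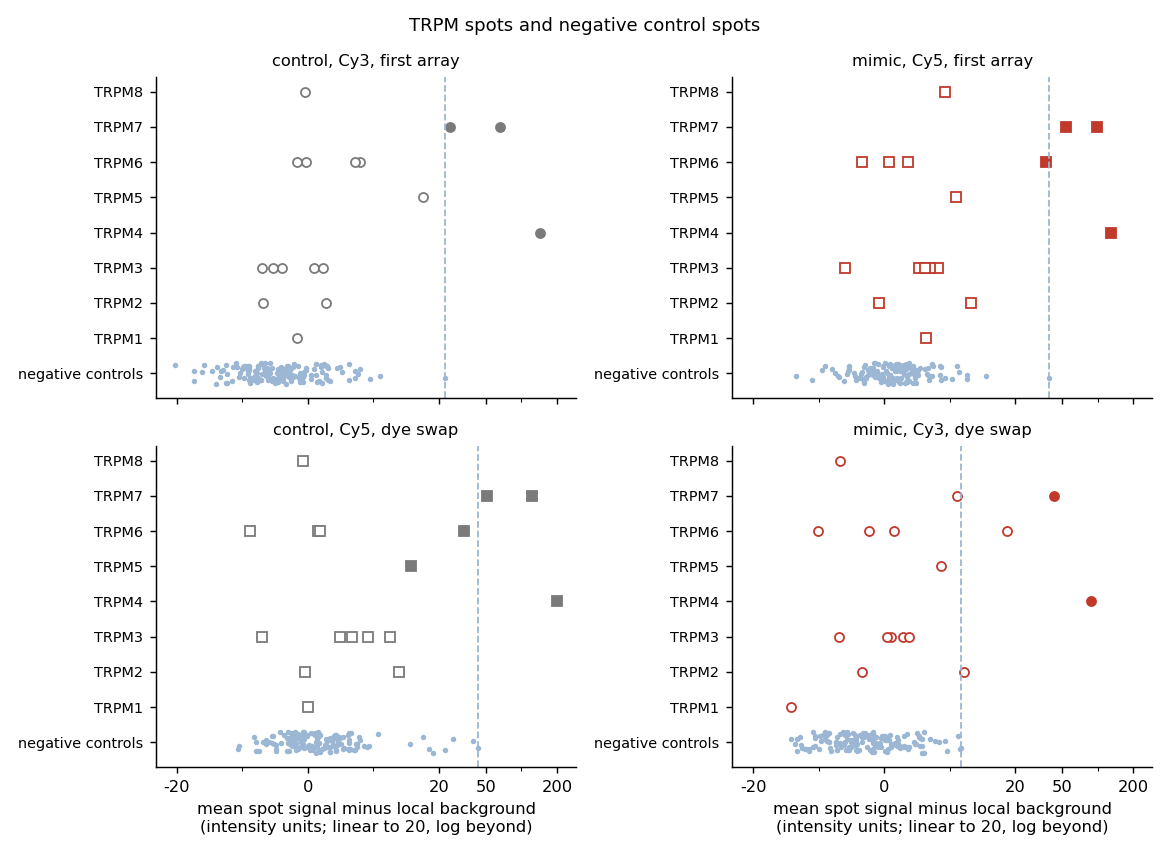
Mean spot signal minus local background (intensity units, linear to 20 and logarithmic beyond) in each of the 4 channels, for the 153 negative control spots (blue, with a dashed line at their maximum) and for the spots of each TRPM gene. Filled symbols were well above background, and the TRPM1 and TRPM3 spots lie below the maximum of the negative controls in every channel.

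TRPM4, a channel opened by intracellular calcium that passes sodium and potassium but hardly any calcium, had 1 probe, A_23_P153529 (chr19:54406572-54406631, plus strand). Its processed signal was 163 ± 16.8 for control and 130 ± 13.4 for mimic on the first array (software error of 1 spot). On the dye swap it was 103 ± 10.5 for control and 121 ± 13.0 for mimic. Both mimic readings lay between the control readings on this scale. After quantile normalization the log2 values were 7.12 and 6.92 for control and 6.79 and 7.14 for mimic, in the order first array and dye swap. Mimic then held the highest and the lowest value. The conditions overlapped on both scales, and the order within them depended on the scale. After quantile normalization the log2 ratio of mimic over control came to -0.33 ± 0.21 on the first array and, turned, 0.22 ± 0.22 with the dyes swapped. The mean was -0.05, with a 95% interval from the spot errors of -0.35 to 0.24.

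TRPM7, the channel-kinase that passes magnesium, calcium and zinc and is made in most tissues, had 2 probes, which lie 52774 bases apart on the minus strand of chromosome 15. A_24_P50829 (chr15:48693625-48693684) had a processed signal of 104 ± 11.8 for control and 127 ± 13.5 for mimic on the first array. The dye swap gave 89.8 ± 9.39 for control and 70.0 ± 9.76 for mimic. The mimic RNA gave both the highest and the lowest of these readings. Its log2 ratio was 0.30 ± 0.22 and then -0.37 ± 0.25, with a mean of -0.03 and a 95% interval of -0.36 to 0.29.

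The other TRPM7 probe, A_23_P88470 (chr15:48640851-48640910), read 39.2 ± 6.81 for control and 68.6 ± 8.08 for mimic on the first array. With the dyes swapped it read 33.8 ± 4.33 for control and 21.8 ± 7.38 for mimic, the last of which was not well above background. Here too mimic held the highest and the lowest reading. The log2 ratio was 0.81 ± 0.29 and then -0.59 ± 0.45, with a mean of 0.11 and a 95% interval of -0.42 to 0.64. The 2 TRPM7 probes thus had the same sign as each other on each array, and both changed sign between the arrays.

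The intervals cover the error of single spots and leave out the gap between the arrays. Probes printed 10 times, well above background in all 4 channels and with a mean signal between 40.8 and 129 numbered 11. Their median SD of the log2 ratio among the 10 spots was 0.15 on one array and 0.20 on the other. A_23_P88470 does not meet that filter. These SDs are within 1 array and the distances that follow are between arrays, so they are unlike measures. The TRPM4 ratios lay 0.28 on either side of their mean and the TRPM7 ratios 0.33 for A_24_P50829 and 0.70 for A_23_P88470. A gap as large as that of A_23_P88470 was found for 2.77% of the 25270 counted probes, and gaps as large as those of A_24_P50829 and TRPM4 for 19.6% and 27.0%. These shares are over probes of every signal level, and A_23_P88470, with a mean signal of 40.8, had the lowest of the 3. Over all 140 probes printed 10 times and well above background throughout, the median SDs were smaller, at 0.045 and 0.047. A probe was counted when the same RNA, control or mimic, was well above background on each of the arrays, and TRPM4 and both TRPM7 probes were the 3 TRPM probes that were.

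**Figure D3:**
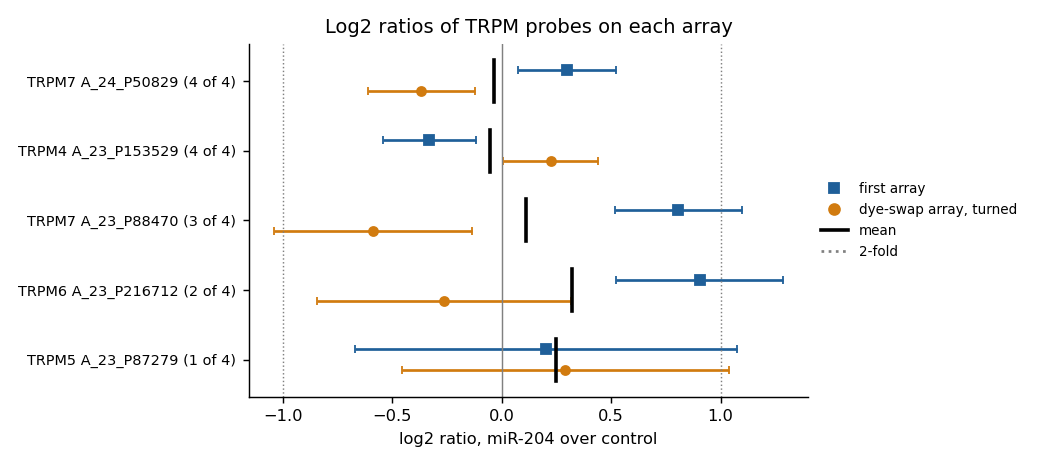
Log2 ratio, mimic over control, from the first array (squares) and the dye-swap array (circles) for the 5 TRPM probes well above background in at least 1 channel, with the number of such channels in parentheses. Bars are the software's error of 1 spot, black strokes the mean of the arrays and dotted lines 2-fold. For TRPM4, TRPM6 and both TRPM7 probes the arrays fall on opposite sides of 0.

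None of the 3 counted TRPM probes was lower by 2-fold in the mean of the arrays with the same sign on both, against 0.518% of the counted probes, and none was higher, against 0.123%. With shares this low, 0 of 3 is no result about TRPM genes. All 3 had opposite signs on the 2 arrays, as had 52.4% of the counted probes. The mean ratio of TRPM4 was at the 40.3 percentile of the counted probes, and those of the TRPM7 probes at the 43.6 (A_24_P50829) and the 69.5 percentile, within a distribution whose 5th and 95th percentiles were -0.47 and 0.39.

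The same RNA can also be set against itself across the dyes, which for each RNA are also different arrays. These differences are made of the same 4 channel values as the ratios, so they are no separate evidence. After quantile normalization the TRPM7 value was higher in Cy5 than in Cy3 for both RNAs: the log2 difference was 0.27 for control and 0.40 for mimic with A_24_P50829, and 0.23 and 1.17 with A_23_P88470. For TRPM4 the difference was below 0 in both, at -0.20 and -0.36. The processed signals given above had another order in part: control with both TRPM7 probes was higher in Cy3, and mimic with TRPM4 was higher in Cy5. Of all counted probes, 59.7% had the same sign in both RNAs, so that agreement between the RNAs is common on these arrays. In these differences dye and array cannot be told apart, and the part of dye in the opposite signs of the TRPM ratios was not tested.

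**Figure D4:**
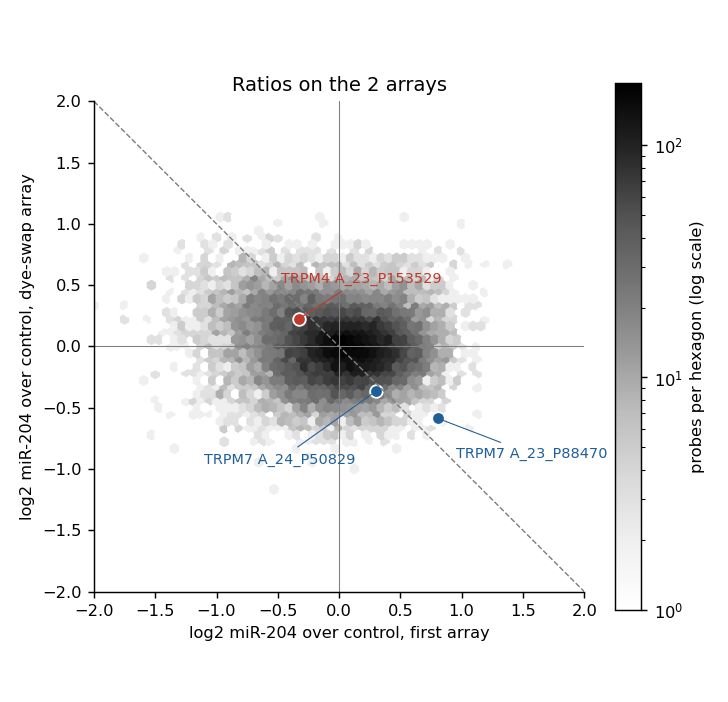
Log2 ratio, mimic over control, of the first array (horizontal) against the dye-swap array (vertical) for the 23159 probes of which every channel was well above background, as counts of probes per hexagon (log scale), with the 3 counted TRPM probes marked. On the dashed line the ratios are equal and opposite, and all 3 TRPM probes lie near it, TRPM4 at the upper left and the TRPM7 probes at the lower right.

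TRPM6, the close relative of TRPM7 with a kinase domain, had 4 probes. A_23_P216712 (chr9:76527266-76527325, minus strand) had processed signals of 18.5 ± 4.72 for control and 35.3 ± 4.98 for mimic on the first array. On the dye swap these were 17.9 ± 2.88 and 13.6 ± 5.58. The 2 Cy5 readings, 35.3 and 17.9, were well above background, and the 2 Cy3 readings were not. The log2 ratio was 0.90 ± 0.38 and then -0.26 ± 0.58, and since neither RNA was well above background on both arrays the probe was not counted. The other TRPM6 probes, at chr9:76544158-76544490, chr9:76567835-76576462 and chr9:76638779-76638838, gave stand-ins in all 12 readings, between 2.08 and 6.40, so that the probes of this gene did not give a common answer on its detection.

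TRPM5, a calcium-activated channel like TRPM4 and known from taste cells, had 1 probe across an intron, A_23_P87279 (chr11:2383362-2383846, minus strand). Its processed signals were 7.85 ± 4.05 and 10.5 ± 2.33 for control and 9.89 ± 3.48 and 11.1 ± 5.06 for mimic, first array before dye swap. The 10.5 was the single reading well above background, and the conditions overlapped. It was the one probe with some such reading whose ratios had the same sign, 0.20 ± 0.87 and 0.29 ± 0.75, and both errors exceeded the ratio.

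TRPM2, a calcium-permeable channel opened by ADP-ribose, had 2 probes and no reading well above background. A_24_P27977 (chr21:44686639-44686698, plus strand) had processed signals of 9.14 and 5.03 for control and 8.32 and 5.59 for mimic, of which 3 were positive and significant. The 5.59 was a stand-in. A_24_P322756 (chr21:44683447-44685126) gave 4 stand-ins. TRPM8, the channel of cold and menthol, had 1 probe, A_23_P403991 (chr2:234592413-234592472, plus strand), with 6.57 and 2.68 for control and 9.27 and 5.75 for mimic, none well above background. The 2.68 and the 5.75, both from the dye swap, were stand-ins, so no order of the RNAs was read from them. For the 9 probes of TRPM1, TRPM2, TRPM3 and TRPM8, the software errors of the mean log2 ratio were between 0.97 and 1.56, and no fold was read from them.

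Genes linked to TRPM channels by family or function were taken from 5 lists, and probes were averaged by gene. No gene of any of these lists was past 2-fold in either direction, against 84 lower and 28 higher of 18585 counted gene names, whose median log2 ratio was 0.002. The 18585 were counted out of 30484 gene names. Opposite signs were found for 52.4% of the counted probes. No such share over gene means is given, so the list counts of opposite signs are a description. Among the other TRP channels, 10 of 19 genes were counted, with a median of 0.03, and 6 of the 10 had opposite signs on the arrays. The lowest was TRPV6, an epithelial calcium channel, at -0.22 (-0.71 on the first array, 0.28 on the dye swap), and the highest TRPV1, the capsaicin receptor, at 0.47 (0.62 and 0.31 over 2 probes). TRPC4, TRPC5, TRPC6 and TRPC7 were, like TRPM1 and TRPM3, well above background in no channel.

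Of the magnesium transport genes, chosen for TRPM6 and TRPM7, 12 of the 15 found on the array were counted, with a median of 0.05 and opposite signs for 5. Taking probes well above background throughout, the lowest was that of CNNM2, a magnesium transport protein of the kidney, at -0.24, and the highest that of NIPAL2, listed as NPAL2, at 0.33. Of the alpha-kinases and substrates of the TRPM7 kinase, 6 of 8 were counted, with a median of -0.11 and opposite signs for 3. ANXA1, annexin A1, which the TRPM7 kinase phosphorylates, was lowest at -0.64 (-0.56 and -0.71), and ALPK1, another alpha-kinase, highest at 0.06. MYH9 and MYH10, the myosin II heavy chains that are substrates of the same kinase, had -0.15 (-0.41 and 0.11) and -0.42 (-0.73 and -0.11). PLCG2, also on this list, had -0.07 (0.24 and -0.39).

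Of the genes of calcium stores and store-operated entry, which set the calcium that opens TRPM4 and TRPM5, 15 of 18 were counted, with a median of -0.05 and opposite signs for 9. ATP2B3, a calcium pump of the cell membrane, was lowest at -0.72 (-1.25 and -0.18 over 2 probes), and ORAI3, a store-operated channel subunit listed as TMEM142C, highest at 0.35 (0.13 and 0.56). Of the genes of TRPM gating and partner proteins, 15 of 18 were counted, with a median of 0.05 and opposite signs for 8. By probes well above background throughout, PLCB4, a phospholipase C that lowers the lipid on which TRPM channels depend, was lowest at -0.19 (-0.14 and -0.23), and ABCC8, the sulfonylurea receptor that assembles with TRPM4, highest at 0.49 (0.62 and 0.36).

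Likeness was measured as the distance between pairs of log2 ratios, over 2 arrays, to the 69 listed genes with such a probe. Nearest to TRPM4 was ORAI1, the pore of store-operated calcium channels, with -0.28 and 0.27 on the arrays, at a distance of 0.068. Nearest to the TRPM7 probe A_24_P50829 was PLCG2, with 0.24 and -0.39, at a distance of 0.063. With 2 values for each gene this likeness is a description.

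**Figure D5:**
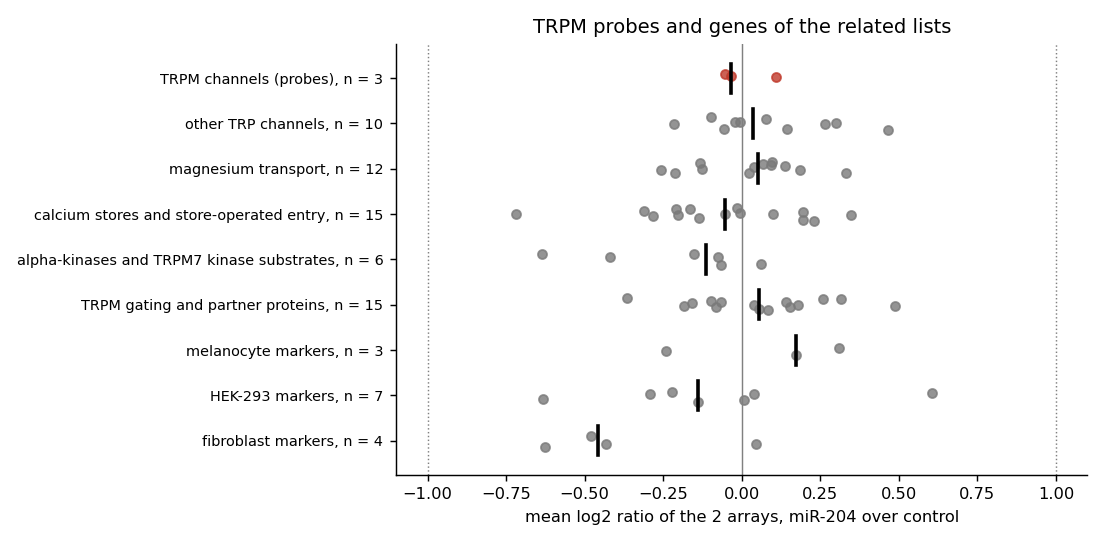
Mean log2 ratio of the 2 arrays, miR-204 over control, for the 3 counted TRPM probes (red) and for the counted genes of each list (grey), with n in the label, the median as a black stroke and dotted lines at 2-fold. No point reaches 2-fold, and the TRPM probes lie between -0.05 and 0.11.

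Of all 30484 gene names 18585 were counted, and the marker counts below are to be read beside that share. Of 8 HEK-293 markers, 7 were counted, with PAX2 well above background in no channel, and their ratios were from -0.63 for NEFM to 0.61 for INA. Of 8 melanocyte markers, chosen because TRPM1 and miR-211 are known from these cells, MITF, PMEL and MC1R were counted, at 0.17, -0.24 and 0.31, while TYR, TYRP1, MLANA and SOX10 were well above background in no channel and DCT in 2 of 12 readings. Of 5 fibroblast markers 4 were counted, so counts of this kind do not set HEK-293 cells apart. Their median was -0.46. COL1A1 was at 0.05, COL3A1 at -0.43 by 1 of its 3 probes and DCN at -0.48. LUM was at -0.63 with 3 of 4 readings well above background, and COL1A2 was not counted. Of 5 blood cell markers none was well above background in any channel. The part of these marker genes in the TRPM readings was not tested.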

How the data were processed

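The authors hybridized RNA of miR-204 mimic and scramble oligo transfected HEK-293 cells on 2 Agilent 4x44K arrays, a dye swap, and extracted signals with Feature Extraction 9.5.3.1. The deposited processed signals are intensity values of 1 colour each, corrected by the software for background and dye, and the uncorrected spot and local background values, also intensity, were deposited beside them. The deposited log10 ratio per spot is Cy5 over Cy3. The authors' series table holds log2 ratios. It ranks probes as the log10 ratios do once turned to miR-204 over control. Their p-values were not used.

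Spots were averaged by probe, and 128 probes carrying an outlier flag were dropped. Log2 processed signals were quantile normalized over the 4 channels with limma 3.58.1 in R 4.3.3, the ratio was taken on each array and the arrays averaged. A probe was called at a mean log2 ratio of at least 1 in size with the same sign on both arrays. Between 57.2% and 66.1% of probes were well above background in a channel. The number of arrays limits the precision, and arrays have no read depth. Errors of ratios come from the software's error of each spot. The normalization and the call rule were run on simulated data with equal noise in every channel and no dye or array effect. That setting is unlike weak probes such as those of the TRPM genes, so it does not cover them. The arrays being 1 replicate, no call rests on a test. The t-test of the study's methods and that of limma, over the arrays, served as alternatives.

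The TRPM genes and the lists were chosen with earlier results of these data known. Named are every TRPM probe, the lowest and highest gene of each list taken over probes with every channel well above background, genes past 2-fold and the gene nearest to each such TRPM probe. The ATP2B3 value is the mean of its counted probes. TRPC4 to TRPC7, MYH9, MYH10 and single cell type markers were named after their values were seen. MAGT1, NIPAL1 and NIPAL4 were matched to no name on the array, and probes of PARP1 and PLCG1 carried an outlier flag. Probe positions are on hg18, as in the files, and microRNA sequences and gene positions are from RefSeq on GRCh38.p14. Where a probe lies in its transcript was not analysed here.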

Additional observations from a re-analysis of the deposited data

How the results depend on the processing

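No TRPM probe passed 2-fold under any alternative: 2 loess settings, no further normalization, quantile normalization of the ratios, the series table, both filters, flags kept, each array alone, 1.5-fold, 2-fold on each array and both tests. By limma and by the methods' t-test, run over arrays of 1 replicate, no probe passed after Benjamini-Hochberg adjustment (0 lower and 0 higher). Without adjustment the t-test gave 18 lower and 15 higher and limma 131 and 31, as many as with no test, none of them a TRPM probe. Under the other 5 normalizations the 3 counted TRPM probes kept opposite signs on the arrays. Their means were between -0.11 and 0.02 for TRPM4, -0.11 and 0.12 for TRPM7 A_24_P50829, and -0.02 and 0.12 for A_23_P88470. With quantile normalization of the ratios, which moved the median ratio of the counted probes to 0.12 (first array) and -0.11 (dye swap), A_23_P88470 had 1.02 on the first array. The means of TRPM6 A_23_P216712 and TRPM5 were between 0.08 and 0.32 and between -0.05 and 0.35. Called positive and significant in all channels, in place of well above background, were 5 TRPM probes, not 2: TRPM4, both TRPM7, TRPM5 and TRPM6 A_23_P216712. With 1 array alone, 2 or 3 were well above background. No share over all probes is set beside these alternative counts, so they are no result about TRPM genes.

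Counts over all probes, 131 lower and 31 higher, moved to 7 and 2 with normexp and loess, to 7 and 2 with loess and no background correction, to 18 higher with quantile normalization of the ratios, to 400 and 252 with no filter, to 29 and 18 for probes well above background in all channels, to 662 and 322 at 1.5-fold, and to 22 and 13 at 2-fold on each array. With either array left out they were between 208 and 724 lower and between 77 and 194 higher. The share of lower among called probes was 80.9%, and 61.3% with no filter, 61.7% in all channels, 67.3% at 1.5-fold, 62.9% on each array, 86.8% with quantile normalization of the ratios and 54.5% by the unadjusted t-test. Probes of listed genes, 0 past 2-fold, moved to 3 lower with no filter, to 5 lower and 1 higher at 1.5-fold, and to between 0 and 3 lower with 1 array left out. The causes were not tested. Each array holds both conditions, so the log2 ratios, and limma over them, pair mimic with control by array. The methods' t-test, as run here, did not use this pairing. With 1 replicate, no pairing by culture was possible.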
